A study of Homo sapiens with 8 samples.

Results

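The ABCC drug efflux transporters were examined at the transcript level in cancer stem cells (CSCs) after knockdown of an adhesion protein or a gap junction protein. The 5 genes described, ABCC1, ABCC3, ABCC4, ABCC5 and ABCC10, were chosen by name from the ABCC family and not by a rule on their values. Earlier results of these data were known when they were chosen. All 5 were among the 12939 genes measured. The cells came from MDA-MB-231, a triple-negative human breast cancer line of mesenchymal type, which carried a GFP reporter driven by the Oct4a promoter. CSCs were taken as the cells brightest for GFP by flow cytometry and were kept in culture overnight before RNA isolation. The 3 groups differed in the short hairpin RNA (shRNA), which every group received from an RFP vector. There were 3 libraries with scramble shRNA (the negative control), 3 with CDH2 shRNA against N-cadherin and 2 with Cx43 shRNA against connexin 43, a gap junction protein. The CDH2 knockdown line was a single chosen clone, so the effect of the hairpin and that of the clone cannot be told apart. The study asked whether these knockdowns make CSCs more sensitive to chemotherapy, and the efflux transporters bear on how much drug a cell retains. The transcripts of CDH2, GJA1 (the gene of connexin 43) and ABCB1 were not analysed here, so the knockdown itself was not checked in these libraries.

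ABCC proteins, also called multidrug resistance proteins (MRPs), are membrane pumps that use ATP to carry organic anions out of the cell, often as conjugates of glutathione, glucuronide or sulfate. ABCC1 (MRP1) exports glutathione conjugates, leukotrienes and anthracyclines such as doxorubicin, and was first found in a drug-resistant lung cancer line. ABCC3 (MRP3) prefers glucuronides and bile salts. ABCC4 (MRP4) and ABCC5 (MRP5) carry cyclic nucleotides and nucleoside monophosphate analogues, and ABCC4 also carries prostaglandins. ABCC10 (MRP7) confers resistance to taxanes and vinca alkaloids.

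None of the 5 transcripts passed the threshold in either knockdown. ABCC5 and ABCC10 were higher in every knockdown library than in every scramble library, as were 17.6% of all genes. They were higher by a fold of 1.30 and 1.25 after CDH2 knockdown, less when set against genes of like length. Neither difference passed the correction over all genes. ABCC1, the most abundant per length, had group means within 0.16 of each other on the log2 scale. ABCC3 had the widest spread of the 5 and was 0.48 lower on the log2 scale after CDH2 knockdown, with 1 library of each group overlapping.

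The start regions of ABCC5 and ABCC10 are shown because these are the 2 members whose knockdown values lay above scramble in every library. Of all genes, 17.6% were separated in this way. The sequences are RefSeq's 250 bases before a transcript start (GRCh38.p14, 5′ to 3′ on the gene's strand). RefSeq windows were matched for 3 of the 5 members, ABCC4, ABCC5 and ABCC10. Capitals mark the GC box GGGCGG on either strand, the short motif bound by Sp1-type factors. The ABCC5 window is chr3:184017885-184018134 on the minus strand, and the outermost ABCC5 transcript of GENCODE begins inside it. ABCC10 has 2 windows on the plus strand, chr6:43427291-43427540 and chr6:43427613-43427862. The gene as GENCODE draws it begins at 43427366, inside the first window, and holds all of the second.
ABCC5: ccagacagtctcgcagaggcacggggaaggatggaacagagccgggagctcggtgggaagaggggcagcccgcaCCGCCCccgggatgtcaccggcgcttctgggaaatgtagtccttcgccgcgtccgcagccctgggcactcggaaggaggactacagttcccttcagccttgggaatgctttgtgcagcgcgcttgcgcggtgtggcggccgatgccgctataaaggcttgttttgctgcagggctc
ABCC10 upstream start: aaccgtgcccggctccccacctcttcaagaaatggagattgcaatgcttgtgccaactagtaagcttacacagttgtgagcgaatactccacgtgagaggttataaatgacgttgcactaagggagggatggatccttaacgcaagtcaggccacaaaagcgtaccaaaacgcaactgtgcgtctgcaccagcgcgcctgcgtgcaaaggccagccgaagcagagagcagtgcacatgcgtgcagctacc
ABCC10 downstream start: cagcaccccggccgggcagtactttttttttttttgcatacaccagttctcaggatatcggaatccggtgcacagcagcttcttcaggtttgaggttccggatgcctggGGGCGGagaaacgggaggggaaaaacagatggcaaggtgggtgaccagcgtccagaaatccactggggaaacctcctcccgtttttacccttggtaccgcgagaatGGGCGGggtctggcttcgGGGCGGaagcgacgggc

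The ABCC5 window held 1 GC box, on the other strand and 176 bases before the start, and the TATA box TATAAA 28 bases before the start. The downstream ABCC10 window held 3 GC boxes, at 141, 35 and 17 bases before its start, and no TATA box. The upstream ABCC10 window held no GC box, but it held TATAAA (149 bases before the start), the E-box CACGTG (161) and the antioxidant response element core TGACNNNGC (143), the letters read by NRF2, a known regulator of ABCC genes. The TATA and antioxidant matches lay side by side and shared no base. Like the E-box, they lay past the outermost GENCODE start of ABCC10. The ABCC4 window, chr13:95301452-95301701 on the minus strand, was the richest in G and C, at 80.4%, against 64.8% for ABCC5, 58% for the downstream and 53.6% for the upstream ABCC10 window. It held the antioxidant core once, on the other strand, and no GC box. Of all 35116 RefSeq windows of this length, 42.6% held the GC box on either strand, 10.9% the antioxidant core, 10.7% TATAAA and 6.34% the E-box, while CCAAT, which no member window held, was in 32%. These matches describe letters and not binding.

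All values below are log2(CPM + 1), where CPM stands for counts scaled to the size of the library, unless a level per length is named. A library is named by its group and replicate number. These are bulk samples, so fewer cells with a transcript and less of it per cell cannot be told apart.

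ABCC1 (ENSG00000103222) lies on the plus strand of chr16:15949138-16143257 in hg38, with 32 exons in its longest transcript. Its values were 6.43, 6.27 and 6.60 in scramble replicates 1, 2 and 3, 6.59, 6.73 and 6.42 in the CDH2 knockdown, and 6.41 and 6.44 in the Cx43 knockdown. All 3 groups overlapped. The CDH2 knockdown mean was 6.58 ± 0.16 (SD, n = 3) against 6.43 ± 0.16 (SD, n = 3) in scramble and 6.42 ± 0.01 (SD, n = 2) in the Cx43 knockdown. The highest and the lowest of the 8 values were those of CDH2 knockdown replicate 2 and scramble replicate 2. A processed pseudogene, RPL17P40, lies within ABCC1 on the opposite strand.

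ABCC3 (ENSG00000108846) lies on the plus strand of chr17:50634777-50692253 and has 31 exons in its longest transcript. It gave 5.11, 4.80 and 5.40 in the scramble libraries, 4.73, 4.82 and 4.33 in the CDH2 knockdown and 4.79 and 5.00 in the Cx43 knockdown. CDH2 knockdown replicate 3 was the lowest of the 8 and scramble replicate 3 the highest. The CDH2 knockdown and scramble overlapped only through their replicates 2, at 4.82 and 4.80. Compared library with library at the same replicate number, the CDH2 knockdown minus scramble was -0.38 in replicate 1, 0.02 in replicate 2 and -1.07 in replicate 3. The SD was 0.30 in scramble and 0.26 in the CDH2 knockdown, wider than for any other member in those groups.

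ABCC4 (ENSG00000125257) lies on the minus strand of chr13:95019835-95301475 and has 33 exons in its longest transcript. Its values were 4.31, 4.19 and 4.43 in scramble, 4.43, 4.61 and 4.34 in the CDH2 knockdown, and 4.54 and 4.48 in the Cx43 knockdown. Both Cx43 knockdown libraries lay above the 3 scramble libraries, whereas the CDH2 knockdown overlapped scramble. The group means were 4.31 ± 0.12 (SD, n = 3), 4.46 ± 0.14 (SD, n = 3) and 4.51 ± 0.05 (SD, n = 2) in that order.

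ABCC5 (ENSG00000114770) lies on the minus strand of chr3:183919934-184017939 and has 30 exons in its longest transcript. It gave 4.54, 4.42 and 4.67 in scramble, 4.91, 5.07 and 4.80 in the CDH2 knockdown, and 4.80 and 4.77 in the Cx43 knockdown. No knockdown library reached down to the scramble values. The CDH2 knockdown mean was 4.93 ± 0.13 (SD, n = 3), the Cx43 knockdown mean 4.79 ± 0.02 (SD, n = 2) and the scramble mean 4.55 ± 0.13 (SD, n = 3). At the same replicate number the CDH2 knockdown was higher by 0.37, 0.64 and 0.13 and the Cx43 knockdown by 0.26 and 0.35. The smallest of these differences was that of replicate 3. The antisense transcript ABCC5-AS1 overlaps ABCC5 on the opposite strand, and since the sources used here do not say whether strand was used in counting, reads of the pair may not have been kept apart.

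ABCC10 (ENSG00000124574) lies on the plus strand of chr6:43427366-43450427 and has 20 exons in its longest transcript. Its values were 4.37, 4.23 and 4.50 in scramble, 4.76, 4.76 and 4.56 in the CDH2 knockdown, and 4.64 and 4.78 in the Cx43 knockdown. Again every knockdown library was above every scramble library, with CDH2 knockdown replicate 3 and scramble replicate 3 closest, 0.05 apart. The means were 4.69 ± 0.12 (SD, n = 3) in the CDH2 knockdown, 4.71 ± 0.10 (SD, n = 2) in the Cx43 knockdown and 4.37 ± 0.14 (SD, n = 3) in scramble. ABCC10 overlaps DLK2 on the opposite strand at its 3′ end and contains the microRNA gene MIR6780B.

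**Figure D1:**
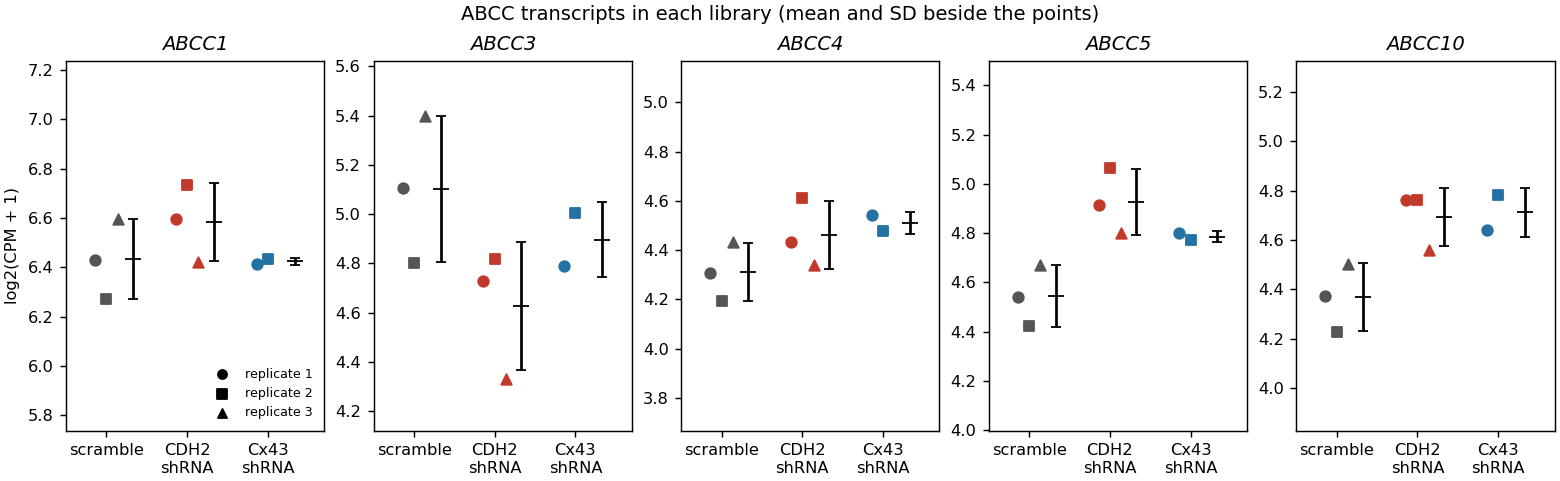
Values of the 5 ABCC transcripts in each of the 8 libraries as log2(CPM + 1), by group, with the symbol giving the replicate number and the bar the group mean and SD. The knockdown points of ABCC5 and ABCC10 all lie above the scramble points, while those of ABCC1 and ABCC3 overlap them.

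The values are tied together by replicate number. In every gene, the libraries that share a replicate number deviate from their group means by amounts that cancel out, with a sum no larger than 1e-04. Replicate number 3 holds a scramble and a CDH2 knockdown library only, so their deviations are equal and opposite. The authors corrected for sequencing runs. That these runs are the replicate numbers is an inference from this pattern, as neither the labels nor the methods say so. The spread seen in these values is what that correction left, and the labels do not say whether the replicates were separate cultures, so the p-values may measure technical spread.

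The comparison of the CDH2 knockdown with scramble asked whether loss of N-cadherin changes the transcripts of the pumps. By limma with Benjamini-Hochberg adjustment over 12939 genes, 0 of the 5 members passed the threshold of an adjusted p under 0.05 and a log2 fold change of at least 0.73, which 2.06% of all genes passed. At the adjusted p alone 0 of the 5 passed, against 14.3% of all genes, 7.29% higher and 6.98% lower. At an unadjusted p under 0.05 there were 2, ABCC5 and ABCC10, against 37.5% of all genes, so the members' share was close to that of all genes. The same holds for the separation of groups. ABCC5 and ABCC10, 2 of 5, were higher in the CDH2 knockdown than in scramble in every library, as were 27.1% of all genes.

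ABCC5 had the smallest p of the members. Its log2 fold change was 0.38 (SE 0.11, 95% interval 0.10 to 0.66, limma adjusted p = 0.0701). ABCC10 was higher by 0.33 (SE 0.12, interval 0.04 to 0.61, limma adjusted p = 0.102). ABCC3 was lower, with a log2 fold change of -0.48 (SE 0.21, interval -0.99 to 0.04, limma adjusted p = 0.153). Its interval was the widest of the members and reached from a large fall to no change. ABCC1 and ABCC4 both differed by 0.15, with intervals of -0.17 to 0.47 and -0.13 to 0.43 and limma adjusted p = 0.426 and 0.363. Leaving out 1 library moved these to between 0.02 (without scramble replicate 2) and 0.31 (without CDH2 knockdown replicate 3 or scramble replicate 3) for ABCC1, and between 0.03 (without CDH2 knockdown replicate 2) and 0.27 (without CDH2 knockdown replicate 3 or scramble replicate 3) for ABCC4. The median log2 fold change was 0.15 over the 5 members and 0.01 over all genes. Genes as long as the members had a higher median than all genes. Relative to the median of genes in the same decile of exonic length, the fold changes were 0.24 for ABCC5, 0.21 for ABCC10, 0.04 for ABCC1, 0.04 for ABCC4 and -0.62 for ABCC3.

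The result for ABCC5 and ABCC10 turned on the replicate number as a block. With the block left out of the limma fit, the adjusted p was 0.0128 for ABCC5 and 0.0260 for ABCC10, both under 0.05, and 0.0681 for ABCC3. Under that fit 43.3% of all genes passed, so 2 of 5 was close to the share of all genes. Both remained short of the fold threshold. With the Cx43 knockdown libraries left out of the fit, the limma adjusted p was 0.121 for ABCC5 and 0.147 for ABCC10, and 0 genes passed. Single libraries also decided these calls. Without CDH2 knockdown replicate 3, and with the same values without scramble replicate 3, the fold changes were 0.51 and 0.46 with limma adjusted p = 0.00574 and 0.00918, where 41% of all genes passed. Without CDH2 knockdown replicate 2 both were 0.27 (limma adjusted p = 0.187 and 0.281), and without scramble replicate 2 they were 0.28 and 0.22 (limma adjusted p = 0.182 and 0.308). For ABCC3 the fold change ranged from -0.72 with adjusted p = 0.00937, without scramble replicate 2, where 12.1% of all genes passed, to -0.18 with limma adjusted p = 0.301, without CDH2 knockdown replicate 3 or without scramble replicate 3.

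The comparison of the Cx43 knockdown with scramble rests on 2 knockdown libraries. Again 0 of the 5 members passed the threshold, here a log2 fold change of at least 0.58, which 1.18% of all genes passed, and 0 passed the adjusted p alone, against 1.21% of all genes, 0.417% higher and 0.788% lower. At an unadjusted p under 0.05 only ABCC10 was counted, 1 of 5, against 21.6% of all genes. ABCC4, ABCC5 and ABCC10, 3 of 5, lay above scramble in every library, as did 31.4% of all genes. ABCC5 and ABCC10 did so in both knockdowns, as did 17.6% of all genes. The 2 comparisons share the scramble libraries.

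ABCC10 was higher by 0.34 (SE 0.14, interval 0.01 to 0.68, limma adjusted p = 0.221), a fold of 1.27. ABCC5 was higher by 0.24 (interval -0.08 to 0.56, limma adjusted p = 0.346) and ABCC4 by 0.20 (interval -0.13 to 0.53, limma adjusted p = 0.431). ABCC3 was at -0.21 (interval -0.81 to 0.39, limma adjusted p = 0.662) and ABCC1 at -0.01 (interval -0.38 to 0.36, limma adjusted p = 0.984). Without the replicate block, ABCC10 alone of the members had an adjusted p under 0.05, at 0.0487 by limma, where 24.3% of all genes passed. Its limma adjusted p was 0.0168 when the CDH2 knockdown libraries were left out of the fit, where 21.7% of all genes passed, and 0.0334 without CDH2 knockdown replicate 3 or without scramble replicate 3, where 16.5% passed. Without scramble replicate 2 its fold change was 0.21. The median was 0.20 over the members and 0.04 over all genes.

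The knockdowns were also set against each other, and 0 of the 5 members passed. In this comparison 0% of all genes passed the adjusted p with the block, 20% had an unadjusted p under 0.05 (0 of 5 members), and 21.5% passed without the block (0 of 5 members). The CDH2 knockdown minus the Cx43 knockdown was 0.16 for ABCC1 (interval -0.21 to 0.53), -0.27 for ABCC3 (-0.87 to 0.33), -0.05 for ABCC4 (-0.37 to 0.28), 0.14 for ABCC5 (-0.18 to 0.46) and -0.02 for ABCC10 (-0.35 to 0.32). The limma adjusted p-values ran from 0.561 to 0.953. The intervals are too wide to show that the knockdowns act alike on any of them.

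**Figure D2:**
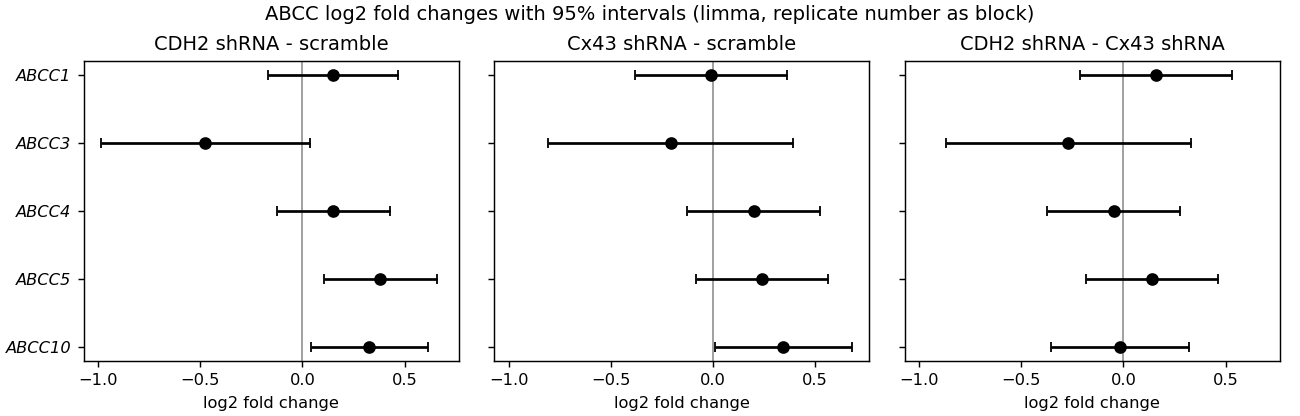
Log2 fold changes of the 5 ABCC transcripts from the limma fit with the replicate block (points) with 95% intervals (bars), for CDH2 knockdown minus scramble, Cx43 knockdown minus scramble and CDH2 knockdown minus Cx43 knockdown. Of the 15 intervals, those of ABCC5 and ABCC10 in the CDH2 knockdown and of ABCC10 in the Cx43 knockdown lie above 0.

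To compare the pumps with each other, the levels were turned back to CPM and divided by the exonic length of each gene in GENCODE. In scramble CSCs, ABCC1 stood at 9.82 ± 1.12 CPM per kb (SD, n = 3), far above ABCC3 at 3.52 ± 0.74, ABCC10 at 2.44 ± 0.24, ABCC4 at 2.19 ± 0.19 and ABCC5 at 1.97 ± 0.18. The order ABCC1, ABCC3, ABCC10, ABCC4, ABCC5 held in all 3 scramble libraries, although the ranges of neighbours among the last 3 overlapped. ABCC1 made up 46.4 to 50.9% of the summed level of the 5 in all 8 libraries. ABCC1 thus led in every group by a gap larger than any spread between replicates.

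After CDH2 knockdown the levels were 10.9 ± 1.19 CPM per kb for ABCC1, 3.09 ± 0.26 for ABCC10, 2.6 ± 0.25 for ABCC5, 2.49 ± 0.44 for ABCC3 and 2.45 ± 0.25 for ABCC4 (SD, n = 3). After Cx43 knockdown they were 9.72 ± 0.10 for ABCC1, 3.12 ± 0.22 for ABCC10, 3.0 ± 0.33 for ABCC3, 2.53 ± 0.09 for ABCC4 and 2.34 ± 0.04 for ABCC5 (SD, n = 2). ABCC10 ranked just after ABCC1 in all 5 knockdown libraries, whereas ABCC3 held that place in all 3 scramble libraries, on exonic length. With the longest transcript as the length, ABCC10 kept that place in CDH2 knockdown replicate 1 and Cx43 knockdown replicate 1, while ABCC5 took it in CDH2 knockdown replicates 2 and 3 and ABCC3 in Cx43 knockdown replicate 2. Below ABCC1, the members of the CDH2 knockdown overlapped their neighbours in the order. In the Cx43 knockdown ABCC10 and ABCC3 overlapped, and ABCC4 and ABCC5 lay apart below them.

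The balance between ABCC10 and ABCC3 is free of a shared scaling of the library. As a log2 ratio per length, ABCC10 minus ABCC3 was -0.51, -0.35 and -0.67 in scramble, 0.28, 0.19 and 0.49 in the CDH2 knockdown, and 0.10 and 0.02 in the Cx43 knockdown. The 3 groups did not overlap. This ratio was picked after its values were seen, so no test is given. How often other pairs of genes separate the groups in this way was not counted. Of single genes, 17.6% lay above scramble in every library of both knockdowns. The shares that follow rest on the same values. ABCC3 made up 16.0 to 19.0% of the summed level in scramble, 10.4 to 12.2% in the CDH2 knockdown and 13.6 to 15.3% in the Cx43 knockdown. ABCC5 made up 9.60 to 10.3%, 11.8 to 12.4% and 11.0 to 11.6% in the same order.

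Ranks below ABCC1 thus depended on the length used. With the longest transcript, ABCC4 was also the lowest in all 8 libraries and ABCC5 stood above ABCC3 in the 3 CDH2 knockdown libraries. The difference between groups in a member's log2 level does not depend on that choice.

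**Figure D3:**
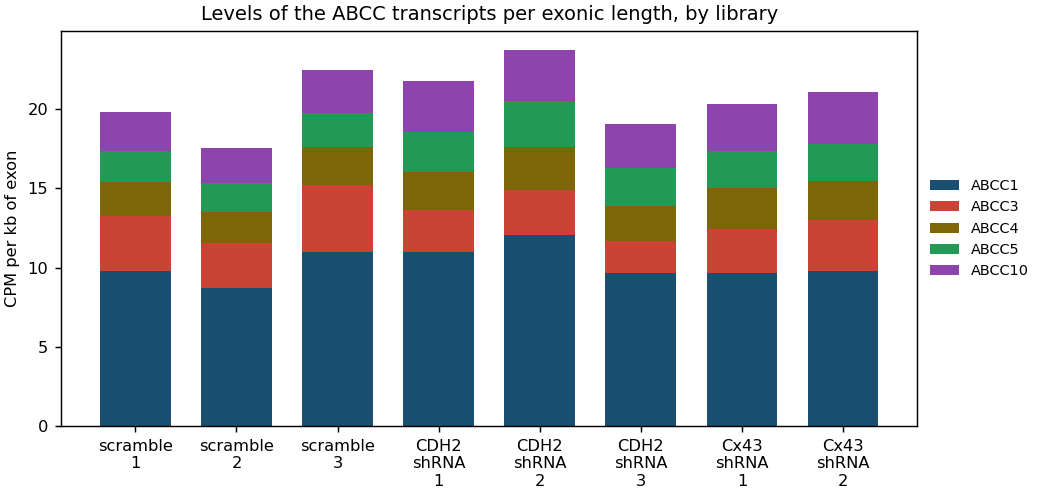
Level of each ABCC transcript in CPM per kb of exon, stacked for each of the 8 libraries from a base of 0. ABCC1 fills 46.4 to 50.9% of every bar, and the ABCC3 segment is thinner in the CDH2 knockdown than in scramble as a share of the bar.

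Of 7 further ABCC genes looked up, ABCC2 (MRP2), a pump of the apical membrane that exports conjugates and platinum complexes, was the only one analysed here. It was low, at 1.91, 1.81 and 2.02 in scramble, 2.27, 2.37 and 2.16 in the CDH2 knockdown, and 1.60 and 1.60 in the Cx43 knockdown. The 3 groups did not overlap, with the CDH2 knockdown highest and the Cx43 knockdown lowest, an order that 1.9% of all genes had in every library. Its log2 fold change against scramble was 0.35 (limma adjusted p = 0.0661) in the CDH2 knockdown and -0.31 (limma adjusted p = 0.203) in the Cx43 knockdown. The knockdowns lay on opposite sides of scramble, in either direction, in 0 of the 5 members and in 4.78% of all genes.

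Genes with related roles were counted in the same way, from lists of known function. The calls below depend on which libraries are fitted, and not only through the fold changes. Without either Cx43 knockdown library, the fold changes of the members after CDH2 knockdown stayed the same, 0.38 for ABCC5 and 0.33 for ABCC10. The spread was then estimated from fewer libraries. With only the CDH2 knockdown and scramble libraries in the fit, 0 genes passed the adjusted p. Of the whole table, 0 genes passed for the CDH2 knockdown against scramble without CDH2 knockdown replicate 1, CDH2 knockdown replicate 2 or either Cx43 knockdown library, and 10 passed without scramble replicate 1. For the Cx43 knockdown against scramble 5 or fewer genes passed when any 1 of these 5 libraries was left out. Among 19 other ABC genes of 36 listed, 2 rose after CDH2 knockdown at an adjusted p under 0.05, where 7.29% of all genes did. These were ABCB10, a mitochondrial transporter, by 0.50 on the log2 scale (limma adjusted p = 0.0266), and ABCE1, a ribosome recycling factor that is no transporter, by 0.43 (limma adjusted p = 0.0339). None fell at that adjusted p and none passed the fold threshold. In the Cx43 knockdown 0 passed the adjusted p, with 13 of the 19 higher and 6 lower. The median was -0.02 and 0.14. ABCB10 stood at 0.58 in the Cx43 knockdown with limma adjusted p = 0.0642.

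Platinum drugs such as carboplatin share routes with copper. Of 14 platinum and copper transport genes (20 listed), 1 rose and 1 fell after CDH2 knockdown, where 7.29% and 6.98% of all genes did. LRRC8D, a subunit of volume-regulated anion channels that let platinum drugs in, rose by 0.35 (limma adjusted p = 0.0388). COX17, a copper chaperone of mitochondria, fell by 0.65 (limma adjusted p = 0.0339). The importer SLC31A1 (CTR1) and the copper pumps ATP7A and ATP7B had fold changes of 0.24, 0.44 and 0.38 that did not pass (limma adjusted p = 0.119, 0.147 and 0.139). The list median was -0.31 after CDH2 knockdown and -0.02 after Cx43 knockdown, where 0 genes passed.

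Glutathione supplies the conjugates that ABCC1 and ABCC2 export, and its list had the most calls. Of 27 glutathione genes (32 listed), 10 fell and 1 rose after CDH2 knockdown, where 6.98% and 7.29% of all genes did. Those that fell included GSTZ1 by 0.85 and GGT1 by 0.85, the latter an enzyme that breaks down glutathione outside the cell (limma adjusted p = 0.0199 and 0.0214), GSTT2B by 0.53 and GSTM4 by 0.49 (limma adjusted p = 0.0209 and 0.0221). The members that fell were mainly transferases, GSTM1, GSTM3, MGST2 and MGST3 among them, with the peroxidase GPX4 and the glutathione-degrading CHAC1, while GSTCD rose by 0.59. These last 7 genes were named after their values were seen. Of the 10, GSTZ1, GGT1 and CHAC1 passed the fold threshold. The fold changes of this and the other lists were not set against genes of like exonic length, as those of the members were. Whether gene length has a part in these counts was not tested.

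The list median was -0.27 in the CDH2 knockdown and -0.05 in the Cx43 knockdown, where GGT1 alone passed, at a log2 fold change of -1.05 (limma adjusted p = 0.0399). GSTM, GSTT2 and GGT genes have near-identical copies, so reads may have been split between them. GCLC and GCLM, the subunits of the enzyme that limits glutathione synthesis, did not pass in the CDH2 knockdown (-0.03 and 0.26, limma adjusted p = 0.804 and 0.0724). GSTP1, a main transferase of tumour cells, gave 7.77, 7.96 and 7.57 in scramble, 7.21, 7.12 and 7.46 in the CDH2 knockdown and 7.81 and 7.70 in the Cx43 knockdown. Its log2 fold change in the CDH2 knockdown against scramble was -0.50 and did not pass (limma adjusted p = 0.0685).

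Other drug carriers were divided. Of 10 uptake and other efflux genes (20 listed), 1 rose and 1 fell after CDH2 knockdown, both being organic anion importers. Of all genes, 7.29% rose and 6.98% fell. SLCO4A1 rose by 0.60 (limma adjusted p = 0.0327) and SLCO2B1 fell by 0.58 (limma adjusted p = 0.0359). MVP, the main protein of vault particles, had a fold change of -0.54 that did not pass (limma adjusted p = 0.0980). In the Cx43 knockdown 0 passed. The medians were -0.04 and 0.03.

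Regulators and scaffolds of ABCC genes were counted next. Of 25 such genes (31 listed), 2 fell after CDH2 knockdown and 1 after Cx43 knockdown, and none rose. Of all genes, 6.98% and 0.788% fell in turn, and 7.29% and 0.417% rose. PDZK1, a scaffold that holds several membrane carriers in place, fell past the fold threshold in both. The falls were 0.75 (limma adjusted p = 0.0295) and 1.24 (limma adjusted p = 0.0375) in turn. It gave 2.44, 2.33 and 2.58 in scramble, 1.62, 1.91 and 1.57 in the CDH2 knockdown and 1.30 and 1.13 in the Cx43 knockdown. These knockdown values lay below the smallest maximum over libraries that any gene had. PDZK1 thus passed the filter on low values through scramble alone, and the part of this in its calls was not tested. SLC9A3R2, another scaffold of this kind, fell by 0.54 after CDH2 knockdown (limma adjusted p = 0.0428). NFE2L2, which encodes NRF2, and its inhibitor KEAP1 did not pass (0.09 and 0.03 after CDH2 knockdown, limma adjusted p = 0.657 and 0.866). The list medians were 0.05 and 0.13.

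ABCC4 and ABCC5 export cyclic nucleotides, and ABCC4 also prostaglandins. Of 16 genes that make or break down these molecules (23 listed), 3 rose and 3 fell after CDH2 knockdown, where 7.29% and 6.98% of all genes did. PTGS1, the constitutive cyclooxygenase, fell from 3.09, 3.09 and 3.11 in scramble to 1.88, 2.0 and 1.92 in the CDH2 knockdown and 1.67 and 1.55 in the Cx43 knockdown. These were changes of -1.16 and -1.49 (limma adjusted p = 0.0160 and 0.0228). Every knockdown value of PTGS1 lay below the smallest maximum over libraries that any gene had. PTGS1 thus passed the filter on low values through scramble alone, and the part of this in its calls was not tested. ADCY3, an adenylyl cyclase, rose by 0.57 and 0.65 (limma adjusted p = 0.0202 and 0.0384). PDE3B, a phosphodiesterase, rose by 0.68 and ADCY6, another cyclase, fell by 0.87 after CDH2 knockdown (limma adjusted p = 0.0334 and 0.0337). The remaining calls, named after their values were seen, were ADCY7, which rose by 0.62, and PTGR1, which fell by 0.36. The list medians were 0.05 and 0.01, near those of all genes.

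No gene of these lists passed in the direct comparison of the knockdowns, where 0% of all genes did.

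**Figure D4:**
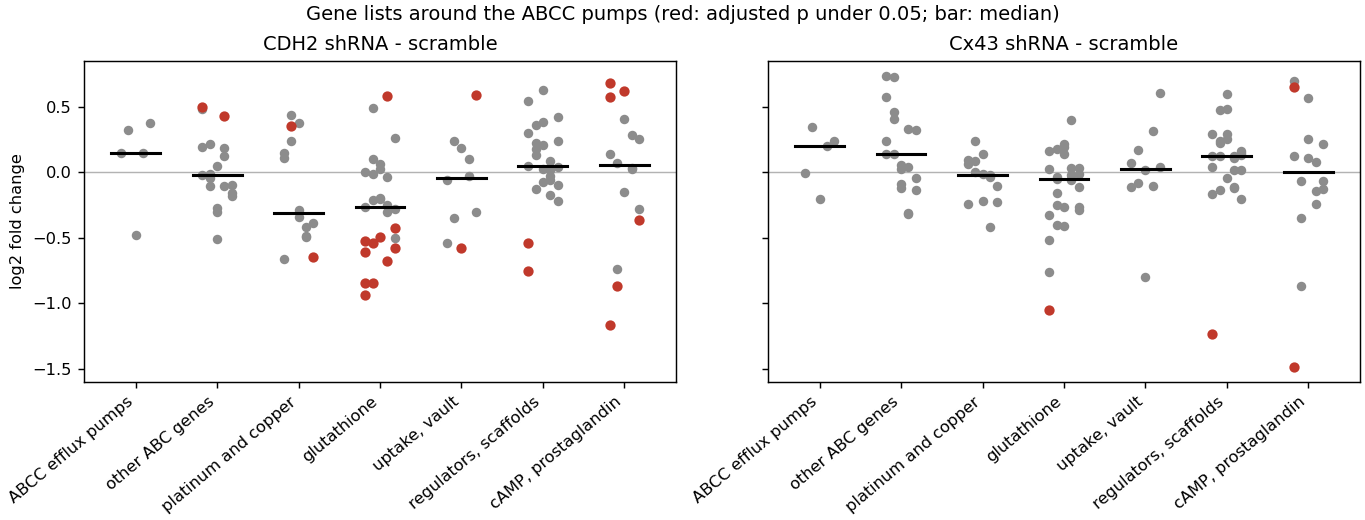
Log2 fold changes of the 5 ABCC pumps and of the genes of 6 related lists, for CDH2 knockdown minus scramble (left) and Cx43 knockdown minus scramble (right). Each point is a gene, red marks a limma adjusted p under 0.05, and the bar is the list median. None of the ABCC points is red, and the glutathione list has 11 red points on the left, 10 of them below 0.

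The genes whose profiles lay closest to each member were found by the root mean square (RMS) difference of mean-centred log2 values over the 8 libraries. For ABCC5 (SD over libraries 0.20) they were GLI3 at 0.0148, HLCS at 0.0161 and ZNF8 at 0.0180. For ABCC10 (SD 0.20) they were LBR at 0.0213, ITPKB at 0.0237 and MAP4K3 at 0.0274. For ABCC4 (SD 0.13) they were EXD2 at 0.0119, ACAD11 at 0.0177 and COG2 at 0.0197. For ABCC1 (SD 0.14) they were ZNF189 at 0.0158, the pseudogene NAMPTP1 at 0.0201 and CDC73 at 0.0213. ABCC3, with an SD of 0.31, had the more distant neighbours CALCOCO1 at 0.0579, ARHGEF4 at 0.0686 and SUMF1 at 0.0700. The libraries share groups and the batch correction, so close profiles are a description only.

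The cell type labels were checked on marker genes. All 10 markers of MDA-MB-231 had values, with sums of 3707 to 3739 CPM in scramble, 3395 to 3616 in the CDH2 knockdown and 3577 to 3777 in the Cx43 knockdown. S100A6 and LGALS1 of these fell after CDH2 knockdown, by 0.87 and 0.65 on the log2 scale (limma adjusted p in both under 0.05). The stem markers analysed here (POU5F1, KLF4, MYC and ALDH1A3, 4 of 9 listed) summed to 222.6 to 225 CPM, 248 to 253 and 292 to 303 in the same order, with 0 called. Markers of stroma and blood (COL1A1, PDGFRB, CD68 and PECAM1, 4 of 13) summed to 74.7 to 88.1, 62.1 to 72.9 and 48.3 to 56.3 CPM. Epithelial markers (EPCAM, KRT8, KRT18 and ERBB2, 4 of 10) summed to 700.2 to 870.0, 576 to 713 and 722 to 727 CPM. PDGFRB and EPCAM fell after CDH2 knockdown, by 0.63 and 0.37 on the log2 scale. The sums of the stem and of the stroma and blood markers also separated both knockdowns from scramble. The genes within them were divided, except for the stroma and blood markers after Cx43 knockdown. Of the 4 stem markers, 3 were higher and 1 lower after CDH2 knockdown, and 2 were higher and 2 lower after Cx43 knockdown. MYC had log2 fold changes of 0.21 and 0.60 in turn, and POU5F1 of -0.06 and -0.18. Of the 4 stroma and blood markers, 2 were higher and 2 lower after CDH2 knockdown, and 4 were lower after Cx43 knockdown. The part of these sums in the ABCC values was not tested. Sequencing depth is unknown, as the files give no read counts, and precision is limited by the number of replicates.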

How the data were processed

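RNA was sequenced after ribosomal depletion with 75-base single reads. The study's methods describe alignment to hg38 with STAR (2.6.1 in the submitters' processing notes) in Partek Flow and quantification of genes by expectation-maximization. The authors excluded 1 library of low quality and put the data on a log scale of CPM + 1. They also corrected for a batch effect between replicates of sequencing and filtered out genes with low values. The annotation is not given in the sources used here. The deposited values are log2(CPM + 1) per gene, and base 2 was checked on the files, where the libraries sum to 684411 to 727083 CPM once turned back. Each file also holds 1 line with no gene name, which was left out. The smallest maximum of a gene over libraries was 2.00. Nothing of this processing was repeated.

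The 12939 genes were fitted in limma 3.58.1 (R 4.3.3) by lmFit and eBayes, with group and replicate number (block) over all 8 libraries. The fit has 3 residual degrees of freedom, 5 without the block, plus 2.84 borrowed from other genes. P-values are two-sided and adjusted by Benjamini-Hochberg over all genes. The script was tested on simulated data. The replicate numbers come from the labels. Deviations within a number sum to 0, from which it was inferred, though no source says so, that the batch correction used these numbers. The residuals vary in only 2 of their 3 directions, so standard errors rest on less information than counted, and correlations of same-numbered deviations (-1 to 0.951) give no independent evidence on pairing. The fold thresholds were those of the study's methods, with the lower one for the direct comparison.

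Levels per length used the merged exons of GENCODE v44 (11888 genes, 91.9%, had a length). An alternative set each fold change against the median of its decile of exonic length. Promoter windows came from RefSeq. The members and gene lists were chosen with earlier results of these data known. The genes named were the members, up to 4 genes per list and comparison with the lowest p among those with an adjusted p under 0.05, a short set of drug-handling genes, and the 3 nearest profiles per member. Exceptions are stated in the text.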

Additional observations from a re-analysis of the deposited data

Results flagged for a closer look

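Of the ABCC, drug-handling and marker genes named, ABCC2, GCLM, EPCAM and GSTT2B had knockdown values on opposite sides of scramble at every replicate number. The marker CD68 did too, with differences from scramble of 0.03, 0.28 and 0.18 in the CDH2 knockdown and -0.10 and -0.45 in the Cx43 knockdown. In ABCC2, GCLM and EPCAM, 3 of 44 named genes checked, the groups also did not overlap. This pattern was found in 4.78% of all genes and in 4 of the 137 member and list genes. The other was MAFG, named after its values were seen. ABCC2 was higher in all 3 CDH2 knockdown libraries and lower in both Cx43 knockdown libraries than in any scramble library, as were 1.9% of all genes, and the knockdowns differed by 0.66 (SE 0.12, 95% interval 0.38 to 0.95). In limma's direct comparison the adjusted p was 0.124, where 0 of 12939 genes passed. GCLM, the modifier subunit of the enzyme that limits glutathione synthesis, gave 7.50, 7.49 and 7.50 in scramble, 7.81, 7.71 and 7.76 in the CDH2 knockdown and 7.33 and 7.44 in the Cx43 knockdown. The difference between knockdowns was 0.38 (SE 0.09, interval 0.15 to 0.60, limma adjusted p = 0.148). EPCAM, an epithelial adhesion protein, was lowest in the CDH2 knockdown and highest in the Cx43 knockdown, a difference of -0.48 (limma adjusted p = 0.124). GSTT2B, a glutathione transferase with a near-identical copy, had a difference of -0.55 (limma adjusted p = 0.115). None of the differences of ABCC2, GCLM, EPCAM and GSTT2B passed the correction, and none of ABCC1, ABCC3, ABCC4, ABCC5 and ABCC10 showed such a split.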

How the results depend on the processing

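Each comparison was recomputed under 17 alternatives, and the number of ABCC members past the threshold was 0 in each of them. Of 255 member fold changes, 241 kept their direction and side of the threshold and 14 changed sign, to values of at most 0.088. When only the compared groups were fitted, 0 genes passed the adjusted p for the CDH2 knockdown against scramble, where 1846 did in the main fit. Under this alternative, ABCC1 in the Cx43 knockdown against scramble came to 0.074. The CDH2 knockdown minus the Cx43 knockdown came to 0.013 for ABCC4 and 0.050 for ABCC10. Leaving out each library in turn gave -0.17 to 0.074, -0.20 to 0.013 and -0.12 to 0.088 for these 3 values. Setting each value against genes of like exonic length lowered ABCC5 and ABCC10 in the CDH2 knockdown against scramble from 0.38 and 0.33 to 0.24 and 0.21, and in the Cx43 knockdown from 0.24 and 0.34 to 0.17 and 0.27. The count of members above scramble in both knockdowns was 2 after quantile scaling and after median centring, alternatives chosen after seeing the data.

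With no replicate block, no member passed the fold threshold, but at the adjusted p alone ABCC5 and ABCC10 in the CDH2 knockdown (0.0128 and 0.0260) and ABCC10 in the Cx43 knockdown (0.0487) did. Over all genes the calls at the adjusted p rose from 1846 to 5607 for the CDH2 knockdown, from 156 to 3140 for the Cx43 knockdown and from 0 to 2784 for the direct comparison. Leaving out 1 library moved these counts to between 0 and 5309, 0 and 2133, and 0 and 2131, the highest without CDH2 knockdown replicate 3 or without scramble replicate 3. The pairing by number cannot be checked independently, since deviations within a number cancel out, and with 3, 3 and 2 libraries the typical standard error was 0.11 to 0.12 on the log2 scale.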
